A study of Mus musculus with 6 samples.

Results

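Molecular chaperones and protein folding enzymes were compared between hepatic progenitor cells of 2 mouse genotypes, Egfr fl/fl and Met fl/fl. The genes were taken by symbol: the HSP70, HSP90, HSP60, HSP10 and small heat shock protein genes, the J proteins (Dnaj), the subunits of the cytosolic chaperonin, the BAG co-factors, the FKBP and PDI families, and Tcp1, Calr, Canx, Hyou1 and Hsf1. The array carried 129 probes for 97 such genes. Of these, 86 probes for 71 genes had a detection p-value under 0.05 on at least 3 of the 6 arrays and were tested, out of 11578 probes tested in all. The other 26 genes had no tested probe. Among them, the lectin chaperone Canx was detected on 0 of 6 arrays and the J protein Dnaja1 on at most 1 array with either of its probes.

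Each genotype had 3 samples, hybridised to Illumina arrays of 1 colour. Both groups were hepatic progenitor cells from C57BL/6 livers that the series calls control livers. In the Egfr fl/fl group the gene of the EGF receptor is flanked by loxP sites, and in the Met fl/fl group the gene of the HGF receptor is. Such alleles are expected to work as normal until a recombinase acts on them, and the labels name no recombinase. Nothing in the labels tells whether a genotype's 3 samples came from separate animals or cultures, so the p-values cover the spread among these samples alone, and that spread may be technical. They give no slide or batch, so a slide that held 1 genotype cannot be told apart from the genotype.

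Chaperones bind unfolded stretches of other proteins and release them to fold, and folding enzymes speed slow steps such as disulfide exchange and prolyl isomerisation. HSP70 proteins work in cycles of ATP hydrolysis that J proteins start and that nucleotide exchange factors such as BAG and HSP110 proteins end. HSP90, the chaperonin and the small heat shock proteins take other clients or other stages, and the endoplasmic reticulum and the mitochondrion each have a set of their own. The factor HSF1 drives many cytosolic and some mitochondrial chaperone genes through heat shock elements, and the unfolded protein response drives those of the endoplasmic reticulum through endoplasmic reticulum stress elements.

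Mean deposited intensity ran from 241 to 398 units per array, and 43.8% to 45.3% of probes were detected on each array. Correlations of log2 values were 0.967 to 0.992 within a genotype and 0.891 to 0.921 between them. Of the biliary and progenitor markers, 6 of 7 on the array were tested, with Krt19 not past the threshold (log2 difference -0.04, Met fl/fl minus Egfr fl/fl) and Sox9 and Krt7 higher in Egfr fl/fl (-1.88 and -1.53). Their summed intensity was 9970 to 11600 units in Egfr fl/fl against 7690 to 10100 in Met fl/fl, and Prom1 was not detected on any array. Of the hepatocyte markers, 5 of 8 were tested, 2 higher in each genotype, with a summed intensity of 2780 to 3600 against 4400 to 5510 units, and Alb, Cps1 and Tat were not detected on any array. Of 8 stellate cell and fibroblast markers, 2 were tested, Acta2 and Dcn, both higher in Egfr fl/fl and without detection in Met fl/fl. Their list summed to 470 to 878 units in Egfr fl/fl against 48.5 to 61.3 in Met fl/fl, and Col1a1, Col3a1 and Lum were not detected. Of 6 endothelial and of 6 macrophage and leukocyte markers 1 each was tested, Csf1r was higher in Egfr fl/fl, and Ptprc and Cdh5 were not detected. The part that a different mix of cells has in the differences below was not tested. In bulk RNA, fewer cells of a type and less RNA per cell cannot be told apart.

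The promoters of the chaperone genes were searched for the 2 elements named above, since these are the regulatory sequences known for the cytosolic and endoplasmic reticulum sets. Because they were chosen as known from such genes, the shares below are a description and no independent result. RefSeq promoter windows (mouse build GRCm38.p6, 250 bases before to 50 after a gene's start) were matched for 57 of the 71 tested genes. The endoplasmic reticulum stress element, read as CCAAT, 9 free bases and CCACG on either strand, was found in 5 of the 57 (8.77%), against 0.137% of all genes with a window and 0.119% of windows. The 5 were Calr, Hspa5, Hsp90b1, Dnajc3 and Pdia6, whose proteins all reside in the endoplasmic reticulum, and Hsp90b1 held the element at 2 places. Each is given with 20 bases on either side, on the gene's strand, and with the element in capitals.
Calr (chr8:84847055-84847113, minus strand): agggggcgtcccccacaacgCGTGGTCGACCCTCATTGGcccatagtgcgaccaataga
Hspa5 (chr2:34772005-34772063, plus strand): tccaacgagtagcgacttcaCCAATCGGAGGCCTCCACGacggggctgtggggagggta
Hsp90b1 (chr10:86705513-86705571, minus strand): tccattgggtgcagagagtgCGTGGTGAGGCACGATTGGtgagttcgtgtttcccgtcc
Hsp90b1 (chr10:86705618-86705676, minus strand): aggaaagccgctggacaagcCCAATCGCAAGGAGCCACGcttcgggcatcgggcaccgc
Dnajc3 (chr14:118937807-118937865, plus strand): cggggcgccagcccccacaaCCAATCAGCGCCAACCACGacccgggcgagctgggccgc
Pdia6 (chr12:17266471-17266529, plus strand): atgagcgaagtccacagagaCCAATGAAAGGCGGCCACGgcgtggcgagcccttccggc

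The heat shock element, read as at least 3 alternating units of GAA and TTC with 2 free bases between them on either strand, was found in 3 of the 57 genes (5.26%), against 0.662% of all genes and 0.603% of windows. These were the J protein gene Dnajb6 and the mitochondrial pair Hspd1 and Hspe1. Hspd1 and Hspe1 are transcribed away from each other on chromosome 1, their promoter windows share 285 bases, and both read the same element from opposite strands. Their marked stretch of 18 bases holds 4 such units, that is, overlapping matches, and that of Dnajb6 holds 3 in 13 bases. The windows of Bag4, Cct4, Dnajc12, Dnajc18, Dnajc2, Dnajc30, Dnajc5, Hsf1, Hsp90aa1, Hsp90ab1, Hspa8, Hspa9, Hspb2 and Hyou1 were not analysed here. No window of a chaperone gene held both elements.
Dnajb6 (chr5:29735832-29735884, plus strand): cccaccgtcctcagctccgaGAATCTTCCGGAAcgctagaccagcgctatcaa
Hspd1 (chr1:55088039-55088096, minus strand): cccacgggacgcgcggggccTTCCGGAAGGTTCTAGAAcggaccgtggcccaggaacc
Hspe1 (chr1:55088039-55088096, plus strand): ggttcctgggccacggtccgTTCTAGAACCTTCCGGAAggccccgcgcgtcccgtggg

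Pooled over compartments, chaperone and folding genes past the threshold were more often higher in Egfr fl/fl than in Met fl/fl. By limma, at an adjusted p under 0.05 and with each gene read from its brightest tested probe, 24 of 71 genes (33.8%) were higher in Egfr fl/fl, where 18.6% of all 8549 genes tested were. In the other direction, 12 of 71 (16.9%) were higher in Met fl/fl, where 22.8% of all genes were. At 2-fold or more, 7 (9.86%) were higher in Egfr fl/fl against 8.01% of all genes, and 3 (4.23%) in Met fl/fl against 7.71%. The groups did not overlap for 42 of 71 genes (59.2%), against 52% of all genes. Hspb2 and Fkbp11 were detected in 1 genotype alone and so passed the detection filter through the group where they are high, as did 4.35% of all genes tested. Hspb8 and Hspa1a were detected on 3 of 3 arrays of their higher genotype and 1 of 3 of the other. They too met the filter through the group where they are high. The median log2 difference, Met fl/fl minus Egfr fl/fl, was -0.18 over the 71 genes and 0.07 over all genes.

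Median scaling in place of quantile normalization gave 6 genes that were higher in Met fl/fl, with 27 higher in Egfr fl/fl, and it moved the median of all genes by -0.20, from 0.07 to -0.13. Array weights gave 19 and 31. The 2 counts were 14 and 28 when Egfr fl/fl replicate 3 was left out, and 10 and 16 when it was the sole Egfr fl/fl array. They were 8 and 16 when Met fl/fl replicate 2 was left out, and 10 and 15 for Met fl/fl replicate 3. Of the 36 genes called, 21 stayed past the threshold whichever single array was left out, 28 were called the same way under median scaling and 23 were when Egfr fl/fl replicate 3 was the sole Egfr fl/fl array.

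**Figure D1:**
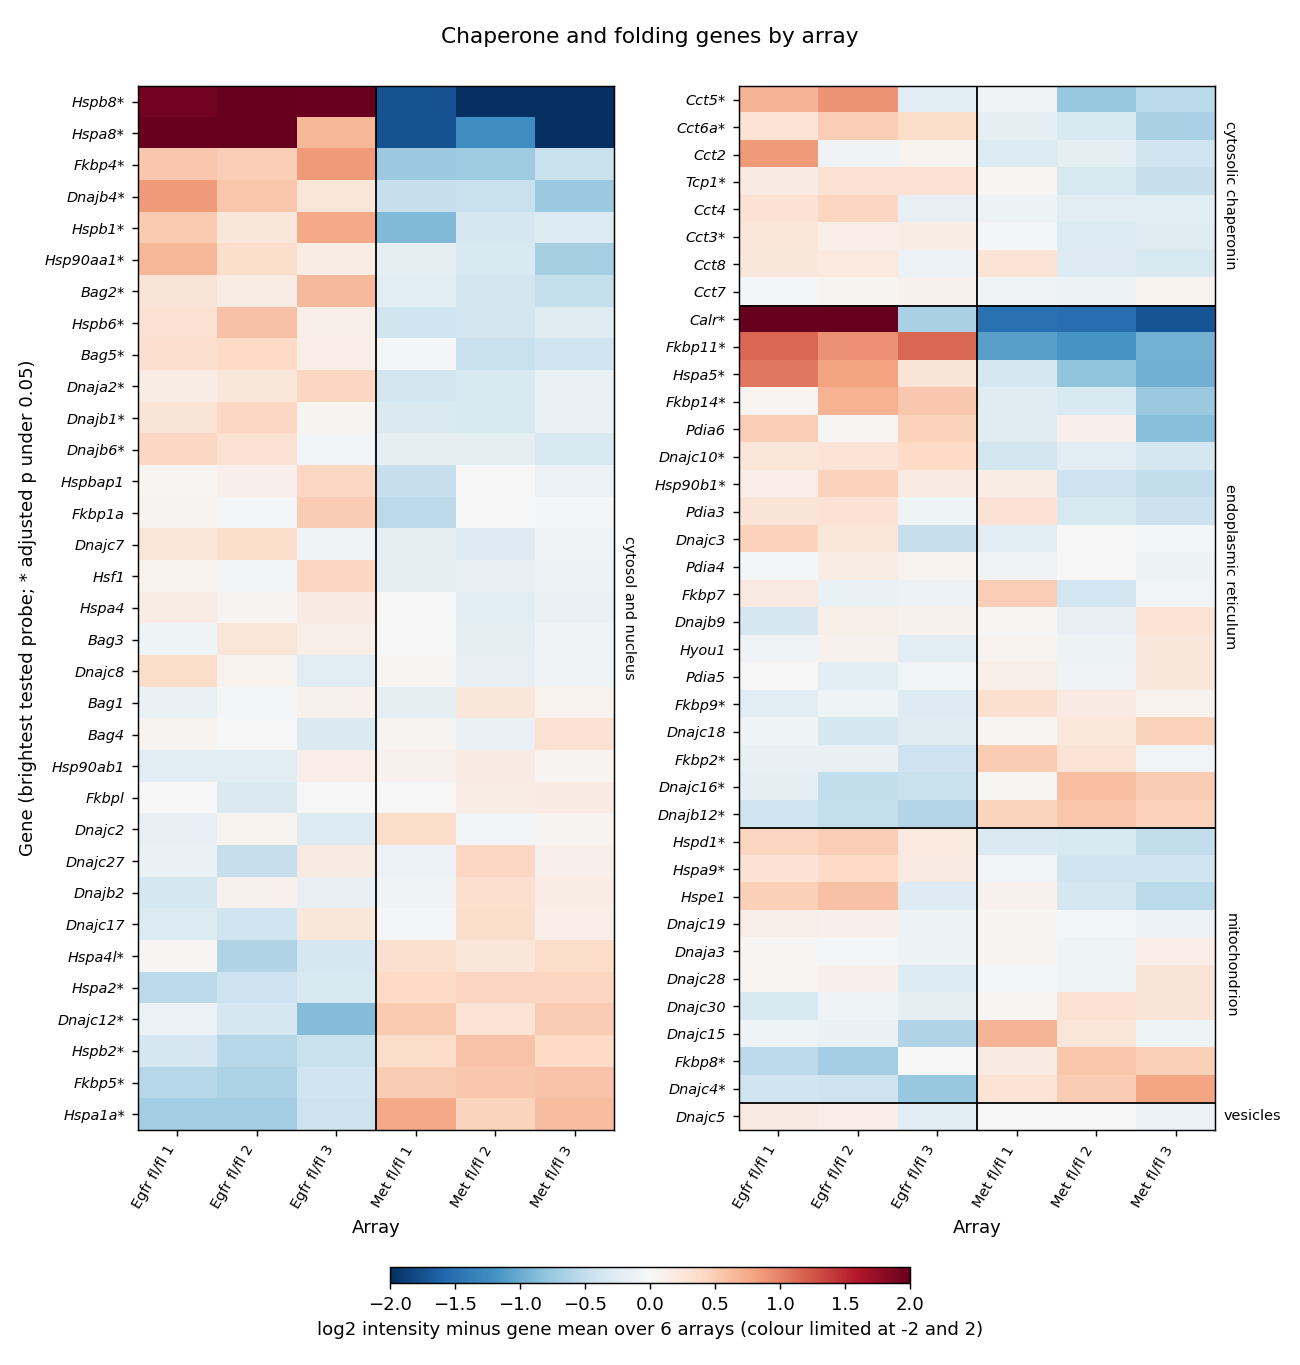
Log2 intensity of 71 chaperone and folding genes on each of the 6 arrays, as the difference from the gene's mean over all arrays (colour scale limited at -2 and 2), with genes grouped by compartment and ordered by the difference between genotypes. Asterisks mark the 36 genes with an adjusted p under 0.05. Hspb8 and Hspa8 stand out at the top left, and Calr is low on Egfr fl/fl replicate 3 as well as on the Met fl/fl arrays.

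**Figure D2:**
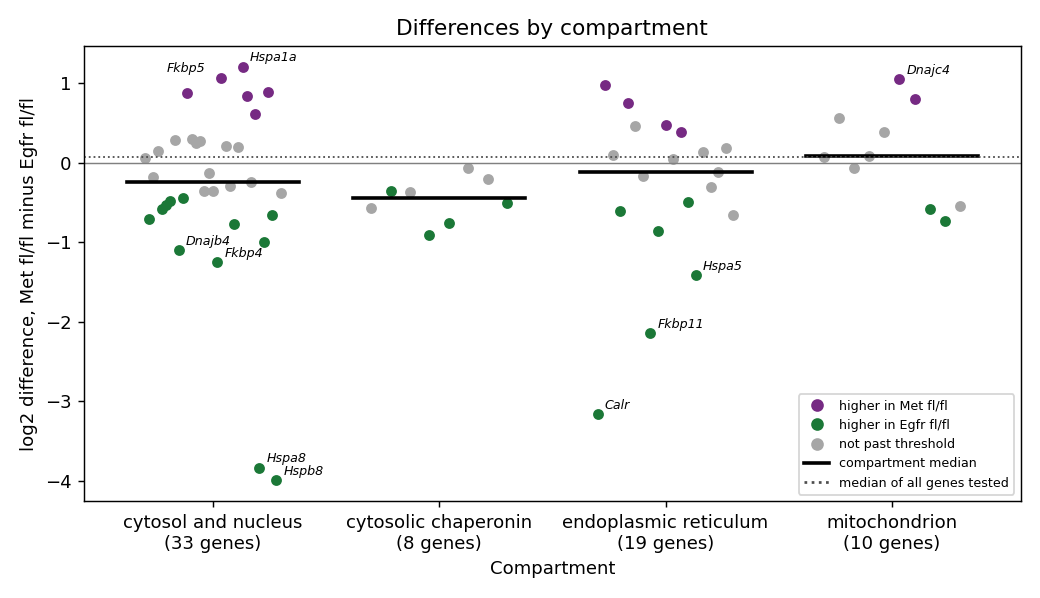
Log2 difference (Met fl/fl minus Egfr fl/fl) of each gene in 4 compartments. Points are genes, coloured by call, bars are compartment medians (-0.25, -0.44, -0.12 and 0.08 from left to right) and the dotted line is the median of all genes (0.07); names are given for called genes with a difference of at least 1.

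In the cytosol and nucleus, 12 of 33 tested genes were higher in Egfr fl/fl, 6 were higher in Met fl/fl, and the median difference was -0.25. Differences ran in opposite directions within the HSP70 and FKBP families. The constitutive HSP70 Hspa8 was far higher in Egfr fl/fl. The stress-inducible HSP70 Hspa1a, at a low signal, was higher in Met fl/fl, through which it met the detection filter. The small heat shock proteins Hspb8, Hspb1 and Hspb6 were higher in Egfr fl/fl. Hspb2 was higher in Met fl/fl but was detected there alone, so its call is no independent support for a split. The 2 immunophilin partners of HSP90 in steroid receptor complexes also split, Fkbp4 higher in Egfr fl/fl and Fkbp5 in Met fl/fl.

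Hspa8, which folds new proteins and strips clathrin coats, read 13.12, 13.14 and 11.24 on replicates 1, 2 and 3 of Egfr fl/fl, and 8.84, 9.34 and 7.81 on the Met fl/fl arrays, in log2 intensity. The genotypes did not overlap, and replicate 3 was the lowest array within each of them. The log2 difference was -3.83 (SE 0.50, limma adjusted p = 0.000243), or 14.3-fold. It was -2.57 with Egfr fl/fl replicate 3 as the sole Egfr fl/fl array and -4.48 without it, and Hspa8 had 1 tested probe, so no other probe bears on this value.

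Hspa1a, the heat-inducible HSP70, read 4.61, 4.62 and 4.90 in Egfr fl/fl against 6.06, 5.75 and 5.93 in Met fl/fl. Its signal was low in both, and 1 of 3 Egfr fl/fl arrays detected it. It met the detection filter through the Met fl/fl arrays, so its call is no independent support for a split. Met fl/fl exceeded Egfr fl/fl by at least 2.00-fold (measured log2 difference 1.21, adjusted p = 0.000408), the bound being the Met fl/fl mean over the lowest detectable signal. Hspa1b, a near-identical copy, was not analysed here, and the files do not say whether the Hspa1a probe also binds its transcript.

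The other HSP70 genes were mixed. Hspa2, best known from the testis, was higher in Met fl/fl by 0.83 (adjusted p = 0.000854) and by 1.07 on its other probe, but by 0.65 with an adjusted p of 0.0599 under median scaling. Hspa4l, an HSP110 type nucleotide exchange factor, was higher in Met fl/fl by 0.61 (adjusted p = 0.0321), a call lost when any of 4 arrays was left out (Egfr fl/fl replicate 2 or any Met fl/fl array; adjusted p up to 0.12). Its relative Hspa4 did not pass the threshold (-0.25). Hsph1, listed in the file under an older symbol and so outside the rule, had a difference of 0.03 (adjusted p = 0.882).

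Hspb8, a small heat shock protein that works with BAG3 in selective autophagy, read 8.82, 8.98 and 8.86 in Egfr fl/fl against 5.14, 4.72 and 4.81 in Met fl/fl. The Egfr fl/fl arrays lay close together, far above the Met fl/fl arrays, of which 1 of 3 detected it. Hspb8 met the detection filter through the Egfr fl/fl arrays, so its call is no independent support. Egfr fl/fl exceeded Met fl/fl by at least 14.6-fold (measured log2 difference -3.99, SE 0.19, adjusted p = 2.66e-07). Leaving out single arrays kept the difference between -4.06 and -3.92. Its partner Bag3 read 11.16 ± 0.17 (SD, n = 3) in Egfr fl/fl against 10.98 ± 0.11 and did not pass the threshold.

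Hspb1, which binds unfolding proteins and actin, read 12.71, 12.42 and 12.95 in Egfr fl/fl against 11.31, 11.85 and 11.92 in Met fl/fl. The groups did not overlap and the difference was -0.999 (adjusted p = 0.00199), or 2.00-fold. Hspb6 differed by -0.66 in the same direction (adjusted p = 0.00855), and by -0.45 with Egfr fl/fl replicate 3 as the sole Egfr fl/fl array (adjusted p = 0.13). Hspb2 read 5.36, 5.55 and 5.38 in Met fl/fl, while 0 of 3 Egfr fl/fl arrays detected it, so that Met fl/fl exceeded it by at least 1.43-fold. It passed the detection filter through Met fl/fl alone, so its call is no independent support. The annotated span of Hspb2 (chromosome 9, 50751072 to 50752354 in GRCm38.p6) lies within that of the small heat shock protein gene Cryab (50745951 to 50756636). Cryab, which the symbol rule did not take, was 6.87-fold higher in Met fl/fl (log2 difference 2.78, adjusted p = 7.98e-07), and the files do not give probe positions.

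Fkbp4 (FKBP52), which favours steroid receptor signalling, read 11.22, 11.19 and 11.54 in Egfr fl/fl against 9.96, 9.99 and 10.25 in Met fl/fl. Fkbp5 (FKBP51), which restrains it and is induced by glucocorticoids, read 9.37, 9.32 and 9.55 in Egfr fl/fl against 10.45, 10.48 and 10.51 in Met fl/fl. The groups were apart in both genes, in opposite directions. The differences were -1.25 (SE 0.14, adjusted p = 9.96e-05) for Fkbp4 and 1.06 (SE 0.12, adjusted p = 0.000119) for Fkbp5. With single arrays left out they ran from -1.34 to -1.15 and from 1.01 to 1.13.

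HSP90 itself differed less. The inducible form Hsp90aa1 read 6.70, 6.38 and 6.19 in Egfr fl/fl against 5.85, 5.74 and 5.38 in Met fl/fl, a difference of -0.77 (adjusted p = 0.0159) that was not past the threshold without Egfr fl/fl replicate 1 or Met fl/fl replicate 3 (adjusted p up to 0.0787). The constitutive form Hsp90ab1 had 3 probes, which gave 0.20, -0.49 and -0.42, none past the threshold. Its brightest probe passed it at 0.30 without Egfr fl/fl replicate 3 (adjusted p = 0.027) and at 0.32 with array weights (adjusted p = 0.00459), and turned to -0.26 under median scaling.

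Of 11 cytosolic and nuclear J proteins tested, 4 were higher in Egfr fl/fl, where 18.6% of all genes were. Dnajc12 alone was higher in Met fl/fl, where 22.8% of all genes were. Dnajb4, an HSP70 partner, read 7.32, 7.02 and 6.71 against 6.01, 6.03 and 5.72, with a difference of -1.10 (adjusted p = 0.00278). Dnajb1, Dnaja2 and Dnajb6 were higher in Egfr fl/fl by 0.45 to 0.54 on the log2 scale, and these calls were not robust to leaving out an array. That of Dnajb1 was lost without Egfr fl/fl replicate 1 or 2 or Met fl/fl replicate 2, that of Dnaja2 without these or Met fl/fl replicate 1, and that of Dnajb6 on leaving out any array except Egfr fl/fl replicate 3 (adjusted p up to 0.184). Dnajc12, a partner of the aromatic amino acid hydroxylases, was higher in Met fl/fl by 0.88 (adjusted p = 0.0107). Of the 6 BAG and related co-factors, Bag2 and Bag5, which regulate the HSP70 cycle, were higher in Egfr fl/fl by 0.70 and 0.58. The Bag2 call was lost without Met fl/fl replicate 2 or 3, and the Bag5 call without any of these or without Egfr fl/fl replicate 1 or 2 (adjusted p up to 0.0642 and 0.1).

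Hsf1, the factor behind the heat shock response, read 10.55, 10.42 and 10.91 in Egfr fl/fl against 10.28, 10.33 and 10.37 in Met fl/fl. The arrays did not overlap but the difference of -0.30 (95% interval -0.62 to 0.02) did not pass the threshold (adjusted p = 0.126). It did at -0.58 with Egfr fl/fl replicate 3 as the sole Egfr fl/fl array (adjusted p = 0.0282).

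**Figure D3:**
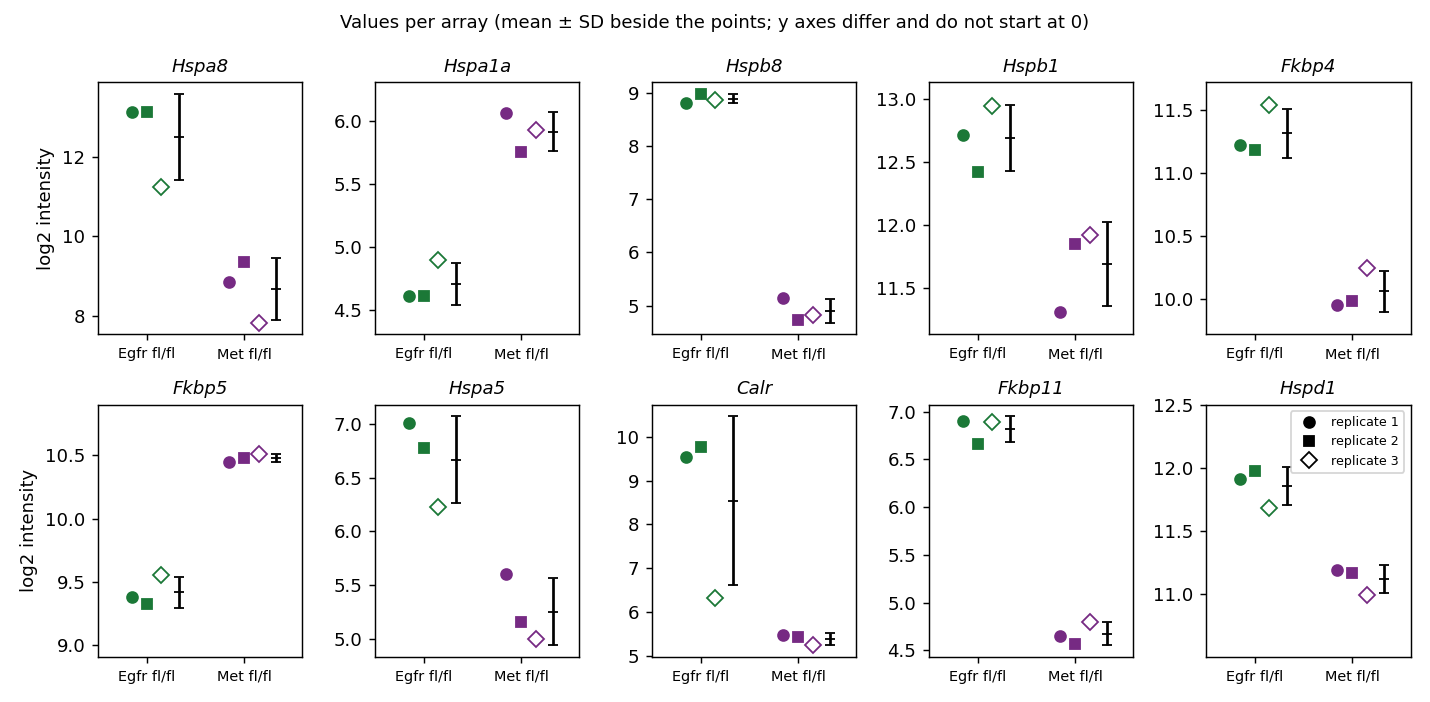
Log2 intensity of 10 named genes on each array (points, replicates 1 to 3 by symbol) with mean ± SD (n = 3) beside the points; the y axes differ and do not start at 0. The 10 were picked from called genes, and genotypes do not overlap in any of them, nor in 52% of all genes tested. Egfr fl/fl replicate 3 is well below the other Egfr fl/fl arrays for Hspa8 and Calr. Hspa1a and Fkbp5 are the 2 genes shown that are higher in Met fl/fl.

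The cytosolic chaperonin TRiC is a double ring built from the product of Tcp1 and 7 CCT subunits that folds actin and tubulin. Of 9 such genes on the array 8 were tested, all but the testis form Cct6b. Of the 8, 4 were higher in Egfr fl/fl, against 18.6% of all genes, and 0 in Met fl/fl, against 22.8%. The fitted difference was below 0 for 8 of 8 genes, against 44.9% of all genes, and for 7 of 8 with Egfr fl/fl replicate 3 as the sole Egfr fl/fl array, against 46.7%. The median was -0.44, the lowest of the compartments with over 1 tested gene, and the largest difference was -0.91. Tcp1 read 11.21, 11.35 and 11.36 in Egfr fl/fl against 11.09, 10.73 and 10.59 in Met fl/fl, a difference of -0.51 (adjusted p = 0.0179). Cct6a read 11.76, 11.98 and 11.85 against 11.30, 11.19 and 10.84, a difference of -0.76 (adjusted p = 0.00211). Cct5 differed by -0.91 (adjusted p = 0.0335), with Egfr fl/fl replicate 3 among the Met fl/fl values, and Cct3 by -0.35 (adjusted p = 0.0355). Cct2, Cct4, Cct7 and Cct8 had differences of -0.57, -0.37, -0.06 and -0.20 and did not pass. Of the 4 calls, that of Cct6a held with any single array left out. The others were lost without Egfr fl/fl replicate 2, Met fl/fl replicate 2 or Met fl/fl replicate 3, and those of Cct3 and Cct5 also without Egfr fl/fl replicate 1 (adjusted p up to 0.147). Prefoldin, which hands actin and tubulin to the chaperonin, had 5 subunits tested and by limma 0 past the threshold in either direction.

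In the endoplasmic reticulum, 6 of 19 tested genes were higher in Egfr fl/fl, against 18.6% of all genes. In the other direction 4 were higher in Met fl/fl, against 22.8%. The median was -0.12. It was -0.0583 when Egfr fl/fl replicate 1 was left out and -0.0791 for Egfr fl/fl replicate 2. The 3 genes with differences of 2-fold or more, Calr, Fkbp11 and Hspa5, were all higher in Egfr fl/fl. Of these, Fkbp11 was detected in Egfr fl/fl alone. Calr differed by -0.99, under 2-fold, with replicate 3 as the sole Egfr fl/fl array. The 4 higher in Met fl/fl were the membrane J proteins Dnajb12 and Dnajc16 and the prolyl isomerases Fkbp2 and Fkbp9, by less than 2-fold.

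Hspa5 (BiP), the HSP70 of the lumen that also holds the stress sensors inactive, read 7.01, 6.77 and 6.22 in Egfr fl/fl against 5.60, 5.16 and 5.00 in Met fl/fl. The groups did not overlap, and the difference was -1.41 (SE 0.25, adjusted p = 0.00157), or 2.66-fold. The Met fl/fl values lay near the lowest detectable signal of those arrays (4.94 to 4.95). The gene was not tested where a detection p under 0.01 was required on all 6 arrays. Leaving out single arrays gave -1.61 to -1.27. Hsp90b1 (GRP94), the HSP90 of the lumen, differed by -0.50 with overlapping groups (adjusted p = 0.0478), and the call was lost without Egfr fl/fl replicate 1 or 2 or Met fl/fl replicate 2 or 3 (adjusted p up to 0.18). Hyou1, the HSP110 of the lumen and exchange factor of BiP, read 5.24 ± 0.15 (SD, n = 3) against 5.37 ± 0.16 and did not pass (0.13, 95% interval -0.25 to 0.50), and it turned to -0.06 under median scaling. Its signal was near the lowest detectable one in both genotypes, where a change is understated.

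Calr (calreticulin), which binds calcium and folds glycoproteins, read 9.54, 9.77 and 6.32 on replicates 1, 2 and 3 of Egfr fl/fl and 5.48, 5.44 and 5.24 in Met fl/fl. Replicates 1 and 2 of Egfr fl/fl were high, replicate 3 lay nearer to the Met fl/fl arrays, and the groups did not overlap. The difference was -3.16 (SE 0.72, 95% interval -4.78 to -1.55, adjusted p = 0.00654), or 8.95-fold. With replicate 3 as the sole Egfr fl/fl array it was -0.99 (adjusted p = 0.011), and with that array left out -4.27. Calr had 1 tested probe.

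Fkbp11, an FKBP of secretory cells, read 6.90, 6.66 and 6.89 in Egfr fl/fl, while 0 of 3 Met fl/fl arrays detected it. Egfr fl/fl exceeded Met fl/fl by at least 3.66-fold. Here the detection filter was passed through Egfr fl/fl alone, so the call is no independent support. Fkbp14 was also higher in Egfr fl/fl (-0.86, adjusted p = 0.015; lost without Egfr fl/fl replicate 2 or Met fl/fl replicate 3). Fkbp2 and Fkbp9 were higher in Met fl/fl by 0.48 and 0.38 (adjusted p = 0.0377 and 0.0358). The call of Fkbp2 was lost on leaving out any array except Met fl/fl replicate 3, that of Fkbp9 any except Egfr fl/fl replicate 3, and both under median scaling (adjusted p = 0.636 and 0.78).

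Among the 6 J proteins of this compartment, Dnajc10 (ERdj5), a disulfide reductase that helps degrade misfolded proteins, was higher in Egfr fl/fl (-0.61, adjusted p = 0.00259). Dnajb12, an anchor of HSP70 at the membrane, read 6.80, 6.73 and 6.61 against 7.64, 7.75 and 7.66 and was higher in Met fl/fl (0.97, adjusted p = 0.00159). Dnajc16 was higher in Met fl/fl by 0.75 on its brightest probe. On its other probe, detected on 2 of 3 Egfr fl/fl arrays, the excess was at least 1.72-fold. Its call was lost without Met fl/fl replicate 2 or 3 and under median scaling (adjusted p = 0.148). Dnajb9 (ERdj4) and Dnajc3 (p58IPK), targets of the unfolded protein response, had differences of 0.09 and -0.16 and did not pass. None of the 4 disulfide isomerases tested, Pdia3, Pdia4, Pdia5 and Pdia6, passed by limma, with differences of -0.30, -0.12 and 0.18 for the first 3 named. Pdia6 was detected on 2 of 3 Met fl/fl arrays and had a measured difference of -0.66, with a bound of at least 1.44-fold. Of the 5 genes with a stress element in their window, printed above, Calr, Hspa5 and Hsp90b1 were higher in Egfr fl/fl, and Dnajc3 and Pdia6 did not pass.

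In the mitochondrion, 2 of 10 tested genes were higher in each genotype. These counts are near the shares of all genes, 18.6% for Egfr fl/fl and 22.8% for Met fl/fl. The 3 core matrix chaperones had negative differences in every setting run, and 2 passed. Hspd1 (HSP60) read 11.91, 11.97 and 11.68 in Egfr fl/fl against 11.19, 11.17 and 10.99 in Met fl/fl on its brightest probe, a difference of -0.74 (SE 0.12, adjusted p = 0.0011). Hspa9 (mortalin), the HSP70 of the matrix, differed by -0.58 on its brightest probe and -0.78 on the other (adjusted p = 0.00529 and 0.00228). The brightest probe gave -0.48 and did not pass (adjusted p = 0.0789) when replicate 3 was the sole Egfr fl/fl array. Hspe1 (HSP10), the lid of HSP60, read 9.90, 9.99 and 9.16 against 9.49, 9.06 and 8.87, with overlapping groups and a difference of -0.54 that did not pass (adjusted p = 0.0935). It passed at -0.80 when Egfr fl/fl replicate 3 was left out (adjusted p = 0.00202) and at -0.74 under median scaling (adjusted p = 0.0336), and was -0.02 with replicate 3 as the sole Egfr fl/fl array. Hspd1 and Hspe1 are the pair with the shared heat shock element printed above, and their annotated spans overlap by 96 bases.

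Of the other mitochondrial genes, Dnajc4 and Fkbp8 were higher in Met fl/fl. Dnajc4, a membrane J protein, read 7.24, 7.21 and 6.86 in Egfr fl/fl against 7.90, 8.14 and 8.41 in Met fl/fl, a difference of 1.05 (adjusted p = 0.00238). Fkbp8, an outer membrane FKBP that binds BCL2 and takes part in mitophagy, differed by 0.79 (adjusted p = 0.00771), with an adjusted p of 0.0956 under median scaling, and by 0.39 with Egfr fl/fl replicate 3 as the sole Egfr fl/fl array (adjusted p = 0.175). The median of the 10 genes was 0.08. It was 0.0007 when Met fl/fl replicate 3 was left out, 0.0074 for Egfr fl/fl replicate 3 and 0.149 for Met fl/fl replicate 2. Of the vesicle J proteins, 1 of 4 was tested, the synaptic vesicle type Dnajc5, with a difference of -0.06.

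Genes with several probes showed how far 1 probe represents its gene. Of 14 chaperone genes with more than 1 tested probe, the probes of 3 (21.4%) differed by more than 1 on the log2 scale, Hspd1, Tcp1 and Dnajb6, against 225 of 2208 genes in all (10.2%). In each of these the dimmer probe had the larger difference. The dimmer probe of Hspd1 read 9.66, 9.72 and 5.90 in Egfr fl/fl against 5.44, 4.92 and 4.68 in Met fl/fl, where 1 of 3 arrays detected it. Egfr fl/fl exceeded Met fl/fl by at least 9.95-fold on it (measured log2 difference -3.41), against 1.67-fold on the brighter probe. The dimmer probe of Tcp1 read 8.73, 9.11 and 7.79 against 6.99, 6.31 and 6.33 (-2.003 against -0.51). The dimmer probe of Dnajb6 read 8.77, 8.87 and 7.34 against 6.46, 6.85 and 6.45 (-1.74 against -0.45).

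These 3 probes share the low value of Egfr fl/fl replicate 3 with Calr and Hspa8. On 5 of 86 chaperone probes (5.81%) that array lay more than 1 below the mean of its fellow replicates 1 and 2, against 296 of 11578 probes in all (2.56%), and on 0 of 86 it lay more than 1 above, against 268 of 11578 (2.31%). That difference was -3.79 for the dimmer Hspd1 probe, -3.34 for Calr, -1.88 for Hspa8, -1.48 for the dimmer Dnajb6 probe and -1.13 for the dimmer Tcp1 probe. On the brighter probes of Hspd1, Dnajb6 and Tcp1 the same array differed from the mean of the others by -0.26, -0.41 and 0.08. With that array as the sole Egfr fl/fl array the dimmer probes gave -0.90, -0.78 and -1.28, and without it -4.64, -2.24 and -2.39, in the order Hspd1, Dnajb6 and Tcp1. Probe sequences and positions were not used here, and why probes of a gene differ was not tested.

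Of the other genes with several probes, Cct3, Hspa2, Hspa9 and Dnajc16 had every probe past the threshold in 1 direction. Dnaja2 and Fkbp2 had 1 of 2 probes past it, with both of the same sign. Dnajc19, Dnajc2, Hsp90ab1 and Pdia5 had probes of opposite sign with none past it, and both probes of Fkbpl were positive with none past it.

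**Figure D4:**
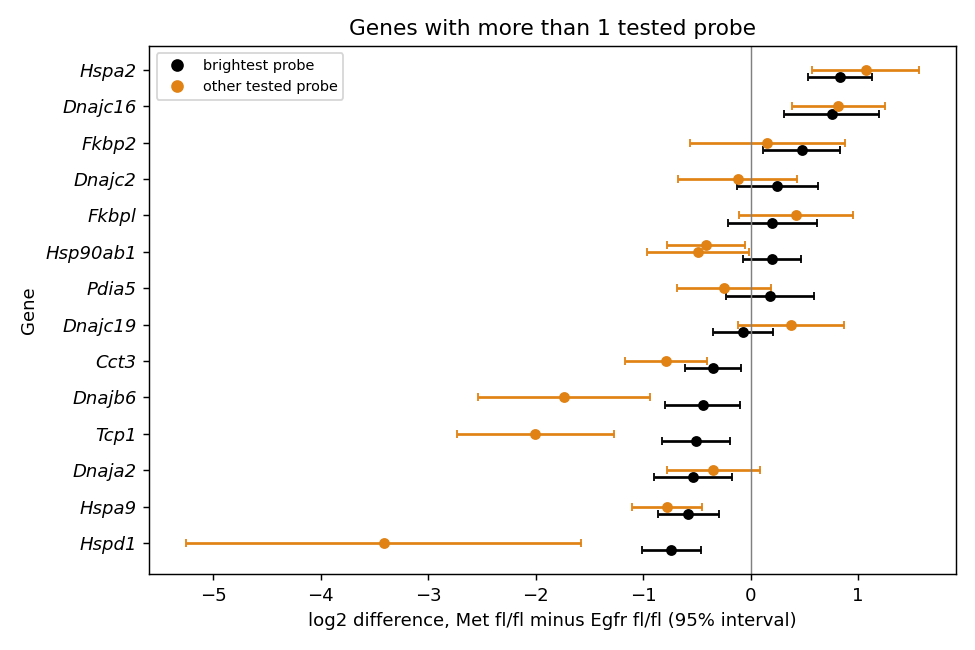
Log2 difference (Met fl/fl minus Egfr fl/fl, points) with its 95% interval (bars) for each probe of the 14 genes with more than 1 tested probe, with the brightest probe in black and the others in orange. For Hspd1, Tcp1 and Dnajb6 the dimmer probe lies further below 0 (measured differences of -3.41, -2.003 and -1.74) than the brightest; the dimmer Hspd1 probe was detected on 1 of 3 Met fl/fl arrays and has only a bound of at least 9.95-fold.

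Further genes of the folding pathways were counted from lists outside the symbol rule. Of 19 tested partners of HSP90 and HSP70 and other chaperones not taken by the rule, 4 were higher in Met fl/fl against 5 in Egfr fl/fl. The small heat shock protein gene Cryab and the collagen chaperone gene Serpinh1, neither a partner of HSP90 or HSP70, led in Met fl/fl, the latter at least 2.44-fold, and 0 of 3 Egfr fl/fl arrays detected Serpinh1. The HSP90 partners Ptges3 (p23) and Ppid led in Egfr fl/fl, with differences of -0.96 and -0.90. Of 6 cyclophilins, the prolyl isomerases unrelated to FKBP, Ppil2 was higher in Met fl/fl (0.74) and Ppic in Egfr fl/fl (-0.39).

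Of 15 sensors, transcription factors and degradation factors of the unfolded protein response, 4 were higher in each genotype. For this and the next lists, the shares of all genes were 18.6% (Egfr fl/fl) and 22.8% (Met fl/fl). Ddit3 (CHOP), a factor induced by that response, read 8.06, 8.14 and 8.14 in Egfr fl/fl against 6.80, 6.87 and 6.42 in Met fl/fl, a difference of -1.42 (adjusted p = 0.00025). Atf4, its upstream activator, differed by -0.93 (adjusted p = 0.000102). The membrane-bound factor Atf6b and the mannosidase-like Edem2 were higher in Met fl/fl by 0.91 and 0.80. Of 21 other folding factors of the endoplasmic reticulum, 2 were higher in Met fl/fl, the glucosidase II subunits Ganab and Prkcsh (0.77 and 0.60), and 3 in Egfr fl/fl, led by the oxidoreductases Tmx4 and Qsox1 (-1.05 and -0.81). Of 14 other mitochondrial folding factors and proteases, 3 were higher in Met fl/fl, led by the protease Spg7 (1.10) and the HSP90 Trap1 (0.61), and 1 in Egfr fl/fl, the protease subunit Clpx (-0.70).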

How the data were processed

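RNA of 3 Egfr fl/fl and 3 Met fl/fl samples was measured on Illumina arrays, with groups and replicate numbers taken from the labels. The deposited non-normalized table holds an intensity per probe on a linear scale. Between 26.9% and 31.1% of an array's probes were below 0, so the authors had subtracted a background. It also holds a detection p-value per probe and array, per the file headers. The deposited normalized matrix, also intensity, was used as an alternative. The submitters' processing notes name GenomeStudio 2011.1, and the sources used here do not name the array model. No spread beyond that between 3 arrays a group can be judged.

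From the intensities, limma 3.58.1 in R 4.3.3 corrected background by normexp with control statistics inferred from the detection p-values, added an offset of 16 and quantile normalized the log2 values. The offset understates the change of dim probes, and quantile normalization removes any difference in total RNA. Probes detected at p under 0.05 on at least 3 arrays were fitted by lmFit and eBayes (trend on), with Benjamini-Hochberg adjustment over all 11578 tested probes. A gene was read from its brightest tested probe. The fit was tested on simulated data.

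Where the dimmer group had arrays that did not detect a probe, "at least" sets the brighter mean against, per array, the higher of the probe's own value and the lowest signal of detected probes. Such a bound compares group means and leaves out the spread between arrays. Members, lists and compartments were chosen with earlier results of these data known. Named were a set of core chaperones whatever their values, every called member of 2-fold or more, otherwise the leading called member of each family in each direction, members whose probes disagree, and up to 2 called genes per direction of each further list; other members were added after their values were seen, to account for each family. Symbols were read as the table gives them; Hspbp1, Bag6, Dnajc24 and Hsph1, listed under older symbols, fell outside and did not pass the threshold. Alternatives covered background, scaling, offset, filter, variance model, array weights, replicate block, probe rule, adjustment and arrays left out; a fit with 1 Egfr fl/fl array assumes that it varies like the Met fl/fl arrays.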

Additional observations from a re-analysis of the deposited data

How the results depend on the processing

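Of 789 pairs of a followed gene and an alternative, 687 kept direction and side of the threshold, 91 kept direction but no longer passed, 7 newly passed and 4 changed sign. Of the 36 called genes, 17 kept direction and passed in every setting that tested them. In single settings 23 to 36 did so, a gene not tested counting as not passing. With a detection p under 0.01 required on all 6 arrays, Calr, Dnajc12, Fkbp11, Hspa1a, Hspa5, Hspb2 and Hspb8 of the 17 were not tested. The sign changes were those of Hsp90ab1 (0.20), at -0.2551 under median scaling, -0.234 as the mean of its probes and -0.0314 where Egfr fl/fl replicate 3 was the sole Egfr fl/fl array, and of Hyou1 (0.13), at -0.0615 under median scaling. No called gene changed sign in the settings run. The causes were not tested, beyond fewer or more probes tested under another filter and fewer samples with arrays left out.

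Median scaling gave 6 genes higher in Met fl/fl and medians of -0.4907 (cytosol and nucleus), -0.7139 (chaperonin), -0.3066 (endoplasmic reticulum) and -0.0866 (mitochondrion); relative to all genes these were -0.36, -0.58, -0.18 and 0.04, against -0.32, -0.51, -0.19 and 0.01 with quantile normalization. Cyclic loess gave -0.3056 for the cytosol and nucleus. With no filter the cytosol and nucleus was at -0.0419 and the endoplasmic reticulum at -0.0153, and with a detection p under 0.01 required on all 6 arrays they were at -0.3577 and 0.1351, the latter a change of sign. Array weights gave 19 genes higher in Met fl/fl and medians of -0.1702 (cytosol and nucleus), -0.2694 (endoplasmic reticulum) and -0.0197 (mitochondrion). The mean of a gene's probes put the chaperonin at -0.5688. Egfr fl/fl replicate 3 as the sole Egfr fl/fl array gave -0.1809 (cytosol and nucleus), -0.2862 (chaperonin) and 0.2155 (mitochondrion). With 1 array left out at a time, 15 to 28 genes were higher in Egfr fl/fl, 8 to 14 in Met fl/fl, and the medians ran from -0.2693 to -0.1985 (cytosol and nucleus), -0.524 to -0.3177 (chaperonin), -0.1494 to -0.0583 (endoplasmic reticulum) and 0.0007 to 0.1494 (mitochondrion).

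The replicate number as a block gave 13 genes higher in Met fl/fl, 27 higher in Egfr fl/fl, and kept all 36 calls, with Hspe1 among the added ones (adjusted p = 0.0147). The deviations of same-numbered samples from their group means correlated at 0.237, -0.145 and 0.32. Neither these values nor the labels settle whether the numbers pair the samples. Signal limits the dim genes: Hspb8, Fkbp11, Hspa1a, Hspb2, Pdia6, the dimmer Hspd1 probe and the second Dnajc16 probe were not detected on 1 or more arrays of their dimmer group, where only a bound can be given. The same held for probes of Dnajc27, Dnajc19 and Pdia5, which were not called. Dnajc28, not called either, was detected on 2 Egfr fl/fl arrays and 1 Met fl/fl array and was too dim for a bound.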
